A study of Mus musculus with 18 samples.

Results

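Phase II enzymes join a large polar group to a drug, hormone, bile pigment or electrophile so that it can leave the cell. Glutathione S-transferases (GST genes, with the membrane-bound Mgst genes) add glutathione, UDP-glucuronosyltransferases (Ugt genes) add glucuronic acid, and cytosolic sulfotransferases (Sult genes) add sulfate from the donor PAPS. The liver makes most of these enzymes, and inflammation is known to lower many of its drug-metabolising enzymes, while isothiocyanates are themselves conjugated to glutathione and are known inducers of several GST genes through the transcription factor Nrf2. The genes described here were chosen by symbol: the Gsta, Gstk, Gstm, Gsto, Gstp, Gstt, Gstz and Mgst genes, the Ugt1a, Ugt2a, Ugt2b and Ugt3a genes and the Sult genes, each kept where its mean FPKM (fragments per kilobase of transcript, scaled for library size) was above 1. Of 62 such symbols among 21441 genes, 43 passed in liver and 14 in macrophages, 46 in either table and 11 in both. The choice used a mean over all libraries of a table and no comparison between treatments. Sult1e1 and Ugt2b37 in liver and Gstt4 in macrophages were under 1 in the control mean and passed only through the treated groups, so a rise in them is partly fixed by the choice and is given as a description. Likewise Sult1c2 in liver was under 1 in the LPS mean and passed through the other groups. Ugt1a6a in macrophages was under 1 in the LPS mean and close to 1 in the control mean. It passed only through the LPS+MIC-1 group, so a rise there is also partly fixed by the choice.

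The study asked how moringa isothiocyanate-1 (MIC-1), from moringa seeds, changes the response to lipopolysaccharide (LPS), a bacterial cell wall component that triggers inflammation. Liver RNA came from 9 wild type male C57BL/6 mice, 3 for each of Control (vehicle, saline injection), LPS (10 mg/kg, injected into the peritoneum) and LPS+MIC-1 (80 mg/kg MIC-1 by oral gavage for 3 days, in DMSO, before the same LPS injection). Tissue was taken 16 h after the injection from groups of 6 mice, and no group received MIC-1 without LPS. RAW264.7 cells, an established mouse macrophage line, gave 3 libraries each of Control, LPS and LPS with 10 μM MIC-1; their LPS dose and time are not given in the sources used here, and nothing says whether the 3 libraries came from separate cultures, so their p-values measure the spread between these libraries only. Mouse ages are not given either. The table headers carry no replicate number, and libraries are numbered 1 to 3 here by column order within a treatment.

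Several libraries stood apart from their group. In macrophages, the second LPS library correlated at 0.98 to 0.99 with the 3 controls and at 0.86 to 0.862 with the other LPS libraries (Pearson r of log2 values across genes, which are not independent). Its summed FPKM of 8 LPS-response genes was 585, against 27066 and 27812 in the other LPS libraries and 299 to 559 in controls, so that it went against its label, and the macrophage calls are given with and without it. The study's own macrophage comparisons used 2 LPS replicates. In liver, libraries 1 and 3 of LPS correlated at 0.979, as did libraries 1 and 3 of LPS+MIC-1, while the second LPS library reached 0.889 and 0.893 with its own group and 0.916 to 0.947 with LPS+MIC-1. The second LPS+MIC-1 library reached 0.935 and 0.932 with its own group and 0.926 to 0.947 with LPS. The labels of these second liver libraries are therefore in some doubt, and the counts of the 43 genes called in liver are given with and without both. The first liver control was the highest of its group for 35 of 43 genes, and the second LPS+MIC-1 library the lowest of its group for 32 of 43. The 8 LPS-response genes differed widely between the liver controls, summing to 1127, 8254 and 131 FPKM. Their sum was 50439 to 118806 in the other 6 liver libraries. All liver comparisons with control rest on these controls, and why they differ was not tested. The summed FPKM of 10 hepatocyte markers was 43032 to 83544 in controls and 43341 to 60409 in the other 6 liver libraries, and the macrophage marker sum was 11026 to 13515 in the RAW264.7 libraries. An FPKM of 1 stood for about 5.76 to 17.4 reads per kilobase of transcript in liver libraries and 14.2 to 24.7 in macrophage libraries. This was estimated from the most frequent low value of genes with 1 transcript, so values below 1 rest on few reads. The liver controls were lowest, at 10.4, 5.76 and 5.96, against 11.9 to 17.4 in the other 6 liver libraries.

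Macrophage and neutrophil markers moved with the liver groups, though not all one way. The sum over the macrophage markers, 10 of 12 listed being in the table, was 58.0 to 93.8 FPKM in controls, 184 to 662 with LPS and 221 to 488 with LPS+MIC-1. Cd14 made up much of the sum in several treated libraries, at 569, 84.2 and 552 FPKM after LPS and at 56.7, 407 and 61.4 FPKM after LPS+MIC-1. Over all genes tested, 13.4% were called higher with LPS and 11.2% lower, by the limits given below. Of the 9 macrophage markers tested, 3 were called higher with LPS (Cd14, Itgam and Marco) and 2 lower, the Kupffer cell genes Clec4f (-2.11 on the log2 scale used below) and Vsig4 (-1.47). Neutrophil markers summed to 37.4 to 53.0 FPKM in controls, 349.7 to 445 with LPS and 190.1 to 459 with LPS+MIC-1. Of 7 tested, 6 were higher with LPS, led in level by S100a8 at 2.13 to 7.98 FPKM in controls and 228 to 286 with LPS. The other, Cxcr2, was lower, at 26.5 to 42.6 FPKM in controls and 3.89 to 10.1 with LPS. S100a9, Elane, Retnlg, Ngp and Camp had at most 1.18 FPKM in any control and passed the threshold through the treated groups. Their rise is therefore partly fixed by the choice and is given as a description. In the macrophage and neutrophil lists 0 genes were at 0 in all 9 libraries. Of 5 endothelial markers tested with LPS against control, 2 were called higher and 1 lower. Of 5 cholangiocyte markers 1 was called higher and 0 lower, and of 6 stellate markers 0 were called. In whole tissue, fewer cells of a type and less RNA per cell cannot be told apart, and the part of these cells in the results below was not tested.

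In control liver the conjugation enzymes were led by GSTs. Over the 9 libraries the 43 genes summed to 11472 to 26756 FPKM, or 1.58% to 3.53% of the table. Gstp1, the pi-class enzyme that handles small electrophiles, made up 40.7% to 70.1% of that sum. Its level was 13126, 4764 and 4808 FPKM in the 3 controls, 7107, 11954 and 7638 after LPS, and 9632, 10237 and 9933 after LPS+MIC-1. The 3 groups overlapped, with the first control and the second LPS library highest. Below it in the mean over all libraries came Mgst1, a membrane-bound transferase and peroxidase, and Gstm1, the main mu-class enzyme of liver. Ugt2b5, which glucuronidates steroids and other substrates, and Sult1a1, the phenol sulfotransferase, led their families. At the threshold, Sult1c2 was just inside with a mean of 1.09 FPKM and Ugt2a1 just outside with 0.837.

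The 19 symbols not above the threshold in liver were Gsto2, Gstt4, Mgst2, Sult1c1, Sult2a1 to Sult2a6, Sult2b1, Sult3a1, Sult4a1, Sult6b1, Ugt1a2, Ugt1a7c, Ugt1a10, Ugt2a1 and Ugt2a2. Of these, 3 were listed at 0 in every liver library.

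**Figure D1:**
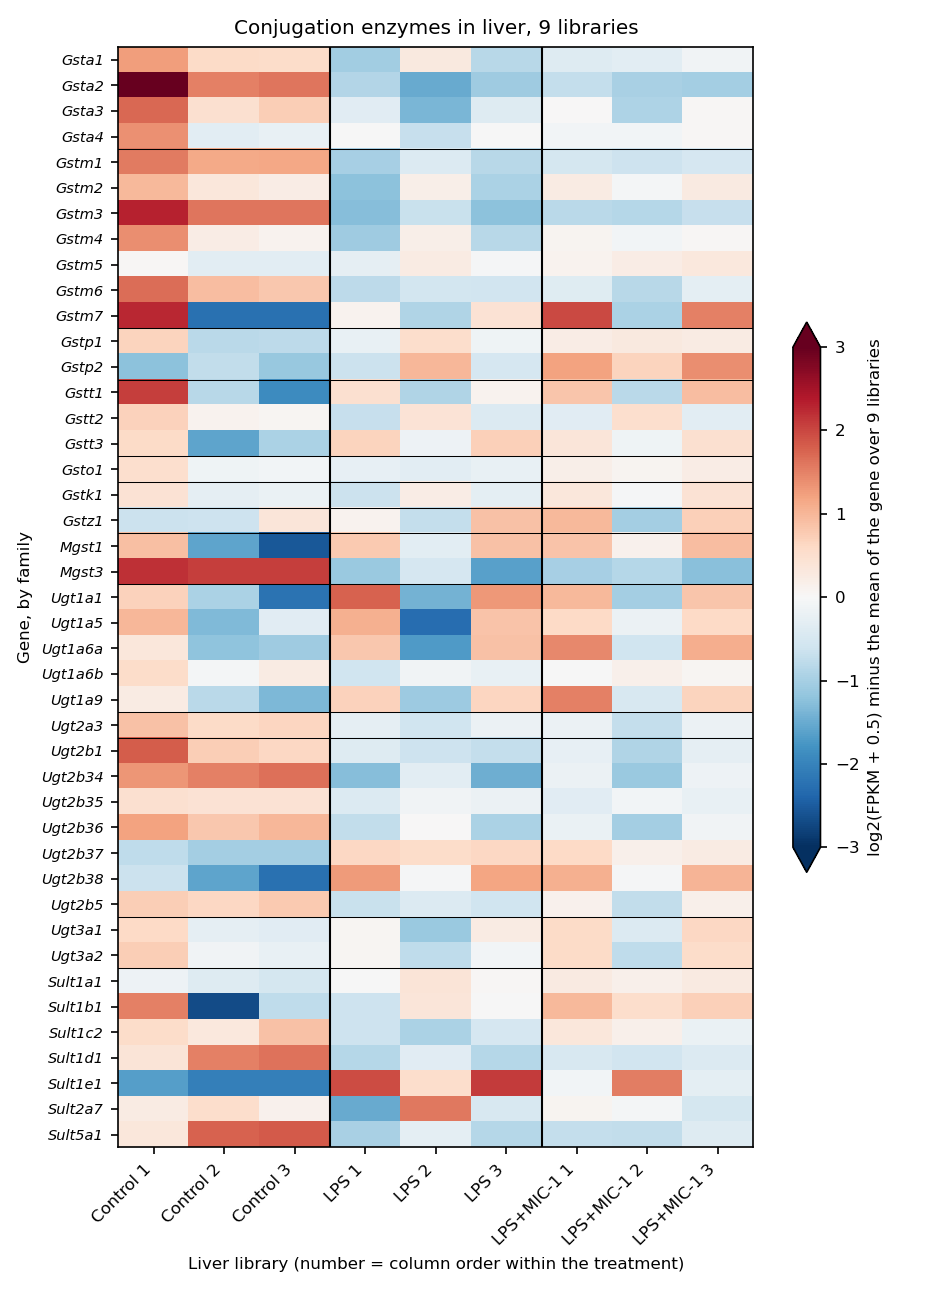
Log2(FPKM + 0.5) of each of the 43 genes in each of the 9 liver libraries, as the difference from that gene's mean over the 9 libraries (red above, blue below), with families divided by lines. Gsta2, Gstm1, Gstm3, Gstm6, Mgst3, Sult1d1, Sult5a1, Ugt2a3, Ugt2b1, Ugt2b34 and Ugt2b35 are red in the 3 controls and blue in all 6 LPS and LPS+MIC-1 libraries, while Sult1e1, Ugt2b37 and Ugt2b38 are blue in the controls and red in at least 4 of the 6 others.

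LPS against control asked what inflammation does to these enzymes in liver. Genes were called changed where limma's adjusted p was below 0.05 and the fold change on the log2(FPKM + 0.5) scale (Log2FC) above 1 in size. Of the 43 genes, 16 fell, where 11.2% of all 10147 genes tested did, and 3 rose, where 13.4% did. The median Log2FC was -0.44 over the 43 genes and 0.15 over all genes. Rescaling every library to the same FPKM sum moved the median of all genes to -0.18, and the median of the 43 genes differed from that of all genes by -0.59 both before and after rescaling. Without the first control, 13 fell (12.3% of all genes) and 5 rose (17.2%): Gstt3 (Log2FC 1.66) and Mgst1 (2.50, adjusted p = 0.00831) joined those that rose, and Gsta1, Gstm2 and Ugt2a3 were lost. Without the second LPS and the second LPS+MIC-1 library, 17 fell (15.7% of all genes) and 5 rose (19.2%), with Gstm4 (-1.52) and Sult2a7 (-1.30) added to those that fell, Ugt1a1 (2.36) and Ugt1a6a (1.49) to those that rose, and Ugt2a3 lost. When libraries 1 and 3 of each treated group were averaged, leaving 2 values for each of those groups, 6 fell (2.63% of all genes) and 2 rose (3.58%).

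Alpha-class GSTs, abundant in liver and active on peroxides and steroid intermediates, fell in 3 of 4 cases. Gsta2 had 214, 71.8 and 77.7 FPKM in controls, 13.3, 8.42 and 11.6 under LPS, and 14.9, 12.5 and 12.1 under LPS+MIC-1. Every treated library was below every control, and Gsta2 had the largest fall of the family, with a Log2FC of -3.22 (SE 0.40, adjusted p = 0.0017). Gsta3, the most abundant alpha-class gene, had 574, 243 and 291 FPKM in controls, 137, 67.1 and 132 after LPS, and 173, 90.2 and 178 after LPS+MIC-1. Its groups with and without LPS did not overlap, and its Log2FC with LPS was -1.68 (SE 0.43, adjusted p = 0.0198), a call lost without the third LPS library. Gsta1 had 52.7, 32.4 and 32.2 FPKM in controls, 10.2, 26.7 and 11.9 under LPS, and 16.5, 17.3 and 20.2 under LPS+MIC-1, a Log2FC of -1.33 (SE 0.36, adjusted p = 0.0229). Its call was lost without the first control, the first LPS or the third LPS library. Gsta4, which acts on the lipid peroxidation product 4-hydroxynonenal, was not called at -0.51 (adjusted p = 0.369).

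Gsta1 and Gsta2 are hard to separate by sequence. Their coding sequences were 97.5% identical, and 92.2% of the 31-base words of Gsta1 transcripts and 57.6% of those of Gsta2 occurred in some other gene of the mm9 transcript set. Gsta1 shared most with Gm3776 (87.8%) and Gsta2 with Gm10639 (43.7%). The authors' pseudoalignment had to divide such reads between genes, so the levels of Gsta1 and Gsta2 are uncertain. The stretch below, coding positions 578 to 667 of both as aligned, shows how far apart the differences lie (capitals mark the 6 bases that differ).
Gsta1: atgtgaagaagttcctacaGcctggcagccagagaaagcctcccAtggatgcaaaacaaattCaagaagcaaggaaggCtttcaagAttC
Gsta2: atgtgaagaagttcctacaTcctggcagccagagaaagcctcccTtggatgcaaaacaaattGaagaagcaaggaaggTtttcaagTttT

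Mu-class GSTs, which detoxify epoxides and other electrophiles, are clustered on chromosome 3, and 4 of 7 fell. Gstm1 had 4441, 3328 and 3375 FPKM in controls, 755, 1133 and 839.9 after LPS, and 1046, 979.6 and 1064 after LPS+MIC-1. This was the largest change in FPKM among the 7, from 3715 ± 629.6 to 909.5 ± 198 (mean ± SD, n = 3), with a Log2FC of -2.04 (SE 0.23, adjusted p = 0.00108). Gstm3 had 159.9, 98.8 and 98.3 FPKM in controls, 12.9, 19.8 and 13.4 under LPS, and 18.1, 17.4 and 19.7 under LPS+MIC-1. Its Log2FC was -2.90 (SE 0.25, adjusted p = 0.000427), and controls and treated libraries were far apart. Gstm6 had 208, 124 and 113 FPKM in controls, 37.4, 43.9 and 43.1 after LPS, and 50.5, 36.0 and 52.4 after LPS+MIC-1, a Log2FC of -1.78 (SE 0.26, adjusted p = 0.00335). Gstm2 had 218, 140.3 and 130.0 FPKM in controls, 47.0, 125 and 57.7 under LPS, and 132, 107 and 134 under LPS+MIC-1. Its second LPS library lay close to the lowest control, and its Log2FC was -1.18 (SE 0.37, adjusted p = 0.0373). Leaving out 1 library at a time lost this call in 7 of 9 fits, all but those without the second LPS or the second LPS+MIC-1 library.

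The other mu-class genes were not called. Gstm4 had a Log2FC of -1.15 with LPS (adjusted p = 0.0561), Gstm5 one of 0.19, and Gstm7 one of 0.62 with 2 controls listed at 0. In mm9 the 7 genes lie in 149.1 kb (chr3:107698739-107847812), and the annotated spans of Gstm3 and Gstm6 overlap, so reads there may be counted to either. Gstm1 and Gstm3 had 89.5% identical coding sequences and shared 22.0% and 22.3% of their 31-base words with other genes.

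Among the membrane-bound transferases, Mgst3, which conjugates and reduces lipid hydroperoxides, fell from controls with little spread. It had 123, 113 and 113 FPKM in controls, 12.0, 18.6 and 8.19 after LPS, and 13.0, 14.4 and 10.7 after LPS+MIC-1. The fall from 116 ± 6.14 to 12.9 ± 5.28 FPKM gave a Log2FC of -3.19 (SE 0.28, adjusted p = 0.000432), and none of the 31-base words of Mgst3 occurred in another gene. Mgst1 had 4983, 899 and 459 FPKM in controls, 4607, 2139 and 4916 under LPS, and 4865, 2934 and 5089 under LPS+MIC-1. Its controls ranged over more than the treated groups, and its Log2FC of 1.52 (SE 0.79) was not called (adjusted p = 0.158), although it was without the first control, as given above.

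No gene of the pi, theta, kappa, omega or zeta classes was called with LPS in liver. Gstp2, a near-identical neighbour of Gstp1, had 17.2, 24.4 and 18.4 FPKM in controls, 26.2, 82.6 and 28.7 after LPS, and 95.7, 66.0 and 109 after LPS+MIC-1. All LPS libraries were above all controls, at a Log2FC of 0.99 (SE 0.42, adjusted p = 0.0977). Gstt1, which conjugates small halogenated compounds, had 155, 20.2 and 9.38 FPKM in controls, 51.2, 19.2 and 39.2 under LPS, and 65.4, 20.6 and 69.7 under LPS+MIC-1, and its groups overlapped throughout. Gsto1, an omega-class enzyme that reduces dehydroascorbate, had 99.7, 64.0 and 65.9 FPKM in controls, 59.3, 56.5 and 60.1 after LPS, and 79.2, 73.7 and 81.7 after LPS+MIC-1. Its LPS libraries were the lowest of the 3 groups, at a Log2FC of -0.35 (adjusted p = 0.19). The mitochondrial and peroxisomal Gstk1 had 138, 85.5 and 90.3 FPKM in controls, 65.5, 119 and 83.6 under LPS, and 131, 101 and 139.6 under LPS+MIC-1. Gstz1, a step of tyrosine breakdown, had 4.21, 4.25 and 8.98 FPKM in controls, 7.37, 3.97 and 13.0 after LPS, and 13.9, 3.14 and 11.5 after LPS+MIC-1. Both overlapped across all groups.

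Gstp1 and Gstp2 had coding sequences identical in 98.1% of bases, and 73.0% of the 31-base words of Gstp1 and 73.4% of those of Gstp2 were shared with each other. Gstp1 was at 4764 FPKM or more and Gstp2 at 109 or less in every liver library, and how reads were divided between them was not tested. In Gstp1 and Gstp2 the first 90 coding bases differ at 6 places, in capitals.
Gstp1: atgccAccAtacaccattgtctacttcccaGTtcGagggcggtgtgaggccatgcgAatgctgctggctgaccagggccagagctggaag
Gstp2: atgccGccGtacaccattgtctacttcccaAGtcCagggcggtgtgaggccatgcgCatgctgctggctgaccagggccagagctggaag

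Among the UDP-glucuronosyltransferases of liver, every gene called with LPS was a Ugt2 gene, and the subfamilies were not tested against each other. The Ugt2 genes, each a separate gene with its own exons that acts mainly on steroids, bile acids and drugs, included 5 of 8 that fell and 2 that rose with LPS. Ugt2b34 had 101, 115 and 127 FPKM in controls, 16.2, 32.0 and 14.1 under LPS, and 35.4, 18.1 and 35.9 under LPS+MIC-1. It fell most in its subfamily, at a Log2FC of -2.52 (SE 0.36, adjusted p = 0.00301). Ugt2b1 had 299, 141 and 131 FPKM in controls, 64.4, 54.6 and 51.2 after LPS, and 72.0, 45.1 and 70.4 after LPS+MIC-1, a Log2FC of -1.64 (SE 0.34, adjusted p = 0.00942). Ugt2b36 had 342, 262 and 295 FPKM in controls, 88.4, 149.7 and 76.5 under LPS, and 129, 72.7 and 139 under LPS+MIC-1, a Log2FC of -1.57 (SE 0.33, adjusted p = 0.00982). In both, every treated library was below every control.

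Ugt2b5 had 386, 357 and 399 FPKM in controls, 147, 175 and 153 after LPS, and 252, 138 and 256 after LPS+MIC-1. Its LPS libraries were close together and well below controls, at a Log2FC of -1.27 (SE 0.26, adjusted p = 0.0088). Ugt2a3, a bile acid glucuronosyltransferase, had 71.1, 58.1 and 61.2 FPKM in controls, 31.8, 25.6 and 34.4 under LPS, and 33.9, 23.4 and 34.1 under LPS+MIC-1, a Log2FC of -1.05 (SE 0.21, adjusted p = 0.00852). Ugt2b35 was lower in every LPS library too, but its Log2FC of -0.68 was under the fold limit (adjusted p = 0.0138).

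The Ugt2 genes that rose were low in controls. Ugt2b38 had 6.70, 3.23 and 1.88 FPKM in controls, 26.7, 10.5 and 25.1 after LPS, and 22.9, 10.5 and 22.3 after LPS+MIC-1. In each treated group the second library was the lowest, and all 6 were above the controls, at a Log2FC of 2.30 with LPS (SE 0.51, adjusted p = 0.0123, and 0.0528 without the third LPS library). Ugt2b37 had 0.573, 0.407 and 0.398 FPKM in controls, 2.32, 2.16 and 2.32 under LPS, and 2.25, 1.53 and 1.66 under LPS+MIC-1, a Log2FC of 1.53 (SE 0.22, adjusted p = 0.0031). With a control mean of 0.459 FPKM it was above the threshold of 1 only through the treated groups. Both are close copies of Ugt2b5, which fell: the coding sequence of Ugt2b5 matched that of Ugt2b38 in 95.1% and that of Ugt2b37 in 92.7% of bases, and 55.0% of the 31-base words of Ugt2b5, 52.9% of those of Ugt2b38 and 34.4% of those of Ugt2b37 occurred in other genes. Their separate levels are therefore uncertain.

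None of the 5 Ugt1a genes and none of the 2 Ugt3a genes was called with LPS. The Ugt1a genes, which include the bilirubin enzyme Ugt1a1, share their last exons and differ in the first, and 58.5% to 93.5% of the 31-base words of Ugt1a1, Ugt1a5, Ugt1a6a, Ugt1a6b and Ugt1a9 occurred in other genes. Ugt1a6b led with 189.5, 124 and 155 FPKM in controls, 85.0, 121 and 111 after LPS, and 128, 143 and 135 after LPS+MIC-1. Its LPS libraries were all below the controls, with a Log2FC of -0.56 (adjusted p = 0.073). Ugt1a1, at a mean of 11.6 FPKM in controls and 31.9 with LPS, had a Log2FC of 1.38 with an SE of 1.00 and was not called (adjusted p = 0.298). Ugt3a2, of a subfamily that uses other sugars than glucuronic acid, had 82.7, 46.0 and 42.0 FPKM in controls, 51.0, 28.7 and 46.1 under LPS, and 73.9, 28.6 and 72.8 under LPS+MIC-1, and its groups overlapped.

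The sulfotransferases moved in both directions, with 3 of 7 lower and 1 higher after LPS. Sult1e1, the estrogen sulfotransferase, had 0.361, 0.158 and 0.155 FPKM in controls, 10.0, 3.45 and 11.2 after LPS, and 2.07, 7.40 and 1.72 after LPS+MIC-1. Its Log2FC was 3.45 (SE 0.55, adjusted p = 0.0044) from a control mean of 0.225 FPKM, a level of few reads at which it would not have been among the 43 genes, and the second library was the lowest of the LPS group and the highest of the LPS+MIC-1 group. Sult1d1, which sulfates catecholamines and phenols, had 48.2, 107 and 116 FPKM in controls, 20.1, 28.8 and 20.1 under LPS, and 26.5, 24.8 and 27.5 under LPS+MIC-1. Its first control was well below the others but above every treated library, and it fell by 1.87 on the log2 scale (SE 0.33, adjusted p = 0.00566). Sult5a1 had 14.9, 41.1 and 43.1 FPKM in controls, 5.65, 9.40 and 6.16 after LPS, and 6.91, 6.74 and 8.75 after LPS+MIC-1, the same order of libraries, and a Log2FC of -2.04 (SE 0.39, adjusted p = 0.00774). Sult1c2 had 1.67, 1.34 and 2.23 FPKM in controls, 0.459, 0.265 and 0.535 under LPS, and 1.38, 1.14 and 0.783 under LPS+MIC-1. At this low level it had a Log2FC of -1.28 (SE 0.28, adjusted p = 0.0117), which came to -0.94 with a pseudocount of 1 and was then under the fold limit.

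Sult1a1 had the highest level of the family, with 262, 222 and 203 FPKM in controls, 289.6, 381 and 299.9 after LPS, and 356, 324 and 353 after LPS+MIC-1. All 6 treated libraries were above all controls, at a Log2FC of 0.49 with LPS (adjusted p = 0.0705) and 0.59 with LPS+MIC-1 (adjusted p = 0.0378), both under the fold limit. With every library rescaled to the same FPKM sum the latter was -0.06 (adjusted p = 0.788), so the direction depends on the scaling. Sult1b1, a thyroid hormone sulfotransferase, and Sult2a7 were not called.

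**Figure D2:**
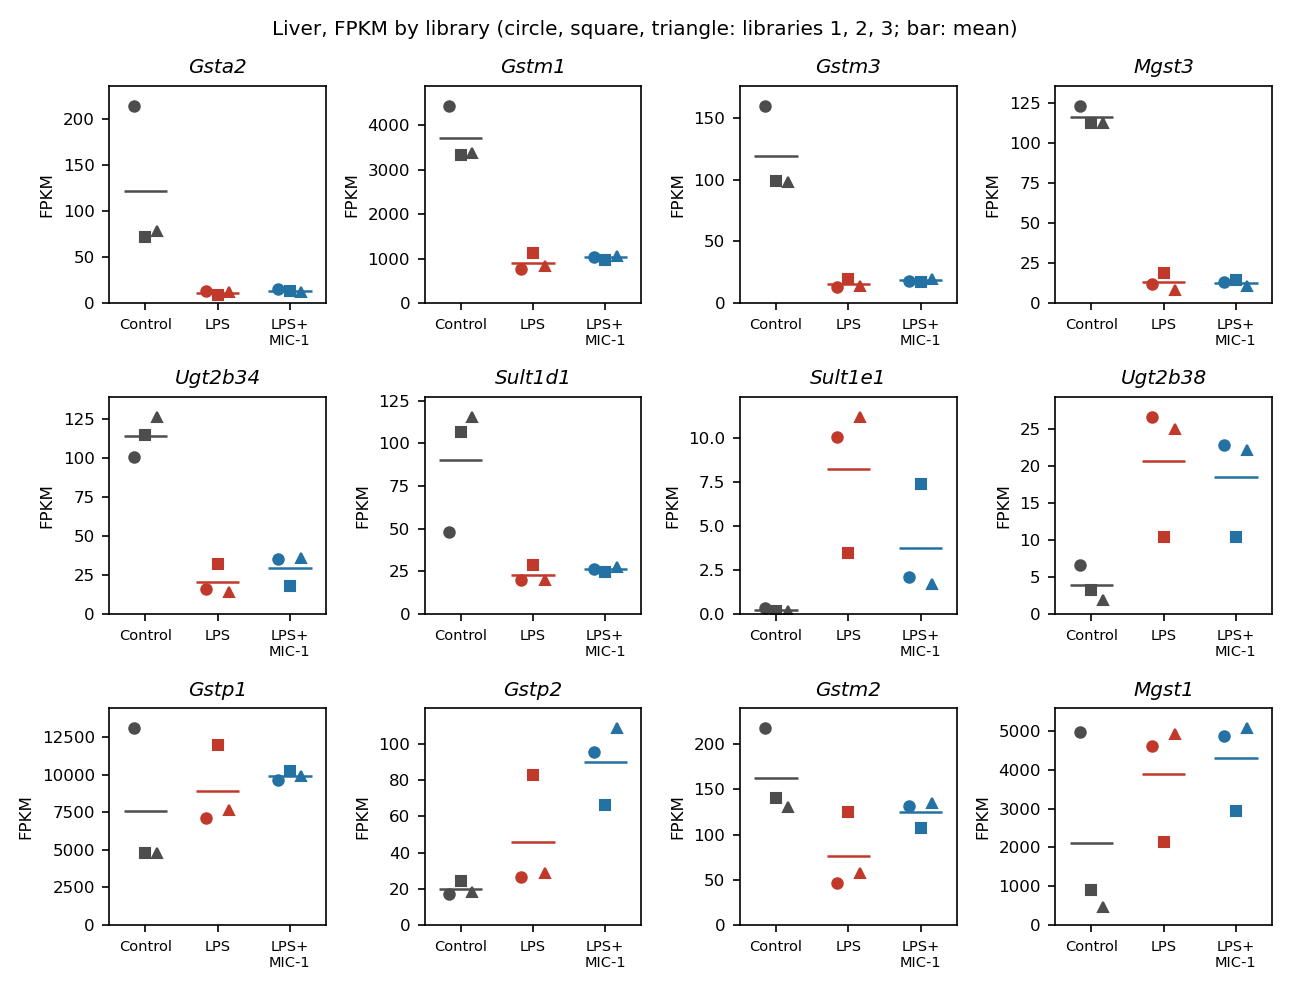
FPKM of 12 genes in the 3 libraries of each liver group (circle, square and triangle for libraries 1, 2 and 3, bars at the group mean), each panel with its own axis from 0. Controls lie above all treated libraries for Gsta2, Gstm1, Gstm3, Mgst3, Ugt2b34 and Sult1d1 and below them for Sult1e1 and Ugt2b38, while Gstp1 and Mgst1 overlap and the squares (second libraries) of LPS often lie apart.

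Some genes that moved in opposite directions were chromosomal neighbours. In mm9, 8 Ugt2 and 3 Sult1 genes lie within 701.8 kb (chr5:87318792-88020636), in the order Ugt2b34, Ugt2b1, Ugt2b35, Ugt2b36, Ugt2b5, Ugt2b37, Ugt2a3, Ugt2b38, Sult1b1, Sult1d1, Sult1e1. Of these 11 genes, 6 fell, where 11.2% of all genes tested did, 3 rose, where 13.4% did, and 2 were not called. Sult1e1 and Ugt2b37 passed the threshold only through the treated groups, so their rise is partly fixed by the choice. The level of the other that rose, Ugt2b38, is uncertain, since it shares sequence with Ugt2b5. Ugt2b37 and Ugt2b38 rose on either side of Ugt2a3, which fell. Sult1d1 (chr5:87983670-87998052) fell and its neighbour Sult1e1 (chr5:88004993-88020636), on the same strand, rose. The coding sequences of Sult1d1 and Sult1e1 were 59.3% identical, and neither shared a 31-base word with another gene.

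**Figure D3:**
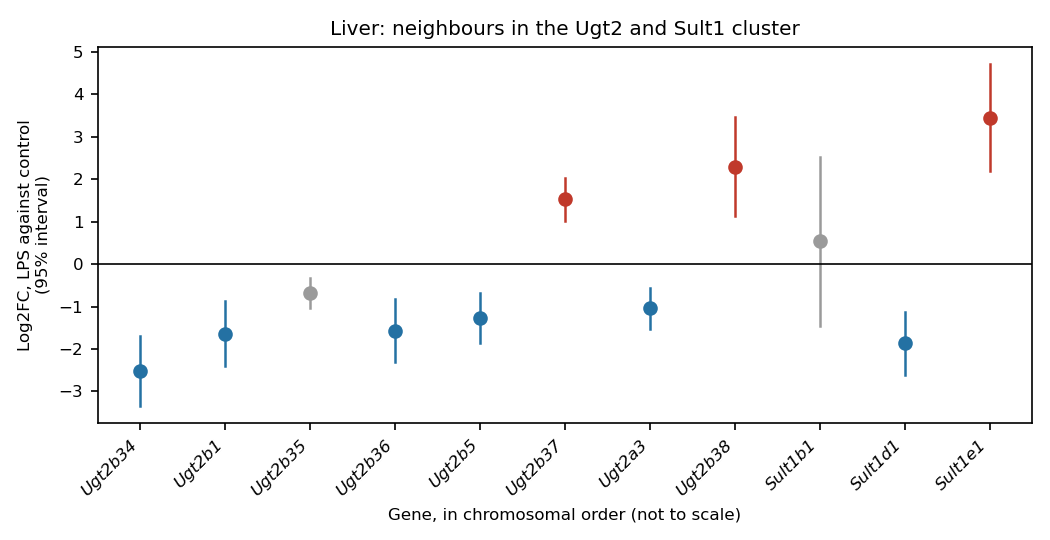
Log2FC of LPS against control in liver for the 11 genes of the Ugt2 and Sult1 cluster, in chromosomal order and not to scale, with 95% intervals (red called higher, blue called lower, grey not called). The 3 genes that rose, at 1.53, 2.30 and 3.45, lie among 6 that fell. Ugt2b37 (1.53) and Sult1e1 (3.45) passed the threshold only through the treated groups.

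Promoters of the genes with the largest falls and of the 2 unlike neighbours are printed to show the start regions behind these values, each running from before to just after the annotated start (RefSeq, GRCm38.p6, a later build than the mm9 of the tables). Each is on the minus strand and written 5′ to 3′ along the gene. Capitals mark matches to TGACNNNGC (the core of the antioxidant response element), GCGTG (the core of the xenobiotic response element) or GTTAATNAT (part of an HNF1 site), on either strand.
Gsta2 (chr9:78347096-78347395): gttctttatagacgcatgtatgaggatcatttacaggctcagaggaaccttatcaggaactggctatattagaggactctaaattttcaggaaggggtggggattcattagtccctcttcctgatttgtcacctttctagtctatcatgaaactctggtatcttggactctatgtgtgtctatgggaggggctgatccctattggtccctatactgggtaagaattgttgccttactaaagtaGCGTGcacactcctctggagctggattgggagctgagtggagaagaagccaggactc
Mgst3 (chr1:167393792-167394091): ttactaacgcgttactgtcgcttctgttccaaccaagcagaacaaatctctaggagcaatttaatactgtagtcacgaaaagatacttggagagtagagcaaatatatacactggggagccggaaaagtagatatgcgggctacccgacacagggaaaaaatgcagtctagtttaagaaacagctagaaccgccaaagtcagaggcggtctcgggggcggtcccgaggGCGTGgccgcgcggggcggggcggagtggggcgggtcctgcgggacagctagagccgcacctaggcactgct
Sult1d1 (chr5:87568957-87569256): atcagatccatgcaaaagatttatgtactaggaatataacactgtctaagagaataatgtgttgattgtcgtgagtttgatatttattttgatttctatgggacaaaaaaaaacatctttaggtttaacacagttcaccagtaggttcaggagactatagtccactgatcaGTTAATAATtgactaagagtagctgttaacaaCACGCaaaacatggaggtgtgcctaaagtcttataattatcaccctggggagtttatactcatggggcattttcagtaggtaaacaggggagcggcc
Sult1e1 (chr5:87591562-87591861): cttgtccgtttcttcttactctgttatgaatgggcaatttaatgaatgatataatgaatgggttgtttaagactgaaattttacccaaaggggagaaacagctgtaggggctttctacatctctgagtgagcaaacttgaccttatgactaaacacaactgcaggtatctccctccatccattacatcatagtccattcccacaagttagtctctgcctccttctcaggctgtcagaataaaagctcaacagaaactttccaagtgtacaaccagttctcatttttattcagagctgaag

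Gsta2, Mgst3 and Sult1d1 each held 1 GCGTG match, Sult1d1 also held GTTAATNAT, and Sult1e1 held none of the 3. Of the 46 genes, 41 had a promoter in the RefSeq table, 38 of them among the liver genes. GCGTG was in 9 of those 38 (23.68%) and in 32.39% of 32851 promoters of all genes. Among genes with a promoter, it was in 5 of the 16 that fell, 0 of the 3 that rose, and 4 of the 19 not called. A gene was counted once if any of its promoters held a match, the 41 genes having 50 promoters. The shares over all genes count single promoters instead. TGACNNNGC was in 4 of 38 (Gsta3, Gstm5, Gstm7 and Mgst1) and in 12.39% of all promoters. GTTAATNAT was in 3 of 38 (Sult1d1, Ugt1a1 and Ugt1a9) and in 0.8% of all promoters. A match is a run of letters, not a measured binding site, and the motifs did not overlap each other in the promoters shown. Only exact matches within these start regions were searched. A promoter without a match may therefore still hold such a site in other letters, or farther away.

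LPS+MIC-1 against LPS asked whether MIC-1 altered the response in liver. No gene of the 43 was called in either direction, and of all 10147 genes 0% were called higher and 0% lower, with a smallest adjusted p of 0.997 among the 43. At an unadjusted p below 0.05, 3.59% of all genes passed and 2 of the 43, Gstp2 (Log2FC 1.14) and Sult1c2 (0.79). The 95% interval of the difference lay within a Log2FC of 1 in either direction for 17 genes and reached 1 for 26, so that a change of that size cannot be set aside for those 26. The groups did not overlap, with LPS+MIC-1 higher, for Gsto1, Sult1b1, Sult1c2 and Ugt1a6b (4 of 43, where 5.1% of all genes did so), and none was lower without overlap (4.64% of all genes).

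Taken as deposited, 36 of the 43 genes had a positive Log2FC, with a median of 0.22 against -0.01 for all genes. After rescaling every library to the same FPKM sum 18 of 43 were positive, with a median of -0.06 against -0.26 for all genes, so the sign of these differences depends on the scaling. The largest differences were 1.14 for Gstp2 and -1.14 for Sult1e1, and in both the second libraries lay on the side of the other group. Leaving out the second LPS and the second LPS+MIC-1 library together, an alternative chosen after the values were seen, called Gstp2 (1.88, adjusted p = 0.0158) and Ugt2b34 (1.21, adjusted p = 0.0210) higher and Sult1e1 (-2.21, adjusted p = 0.0137) lower with LPS+MIC-1. In that fit 1.85% of all genes were called higher and 1.13% lower. The 2 libraries left in each of these groups were the close pairs, so the spread in that fit is the spread within those pairs.

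**Figure D4:**
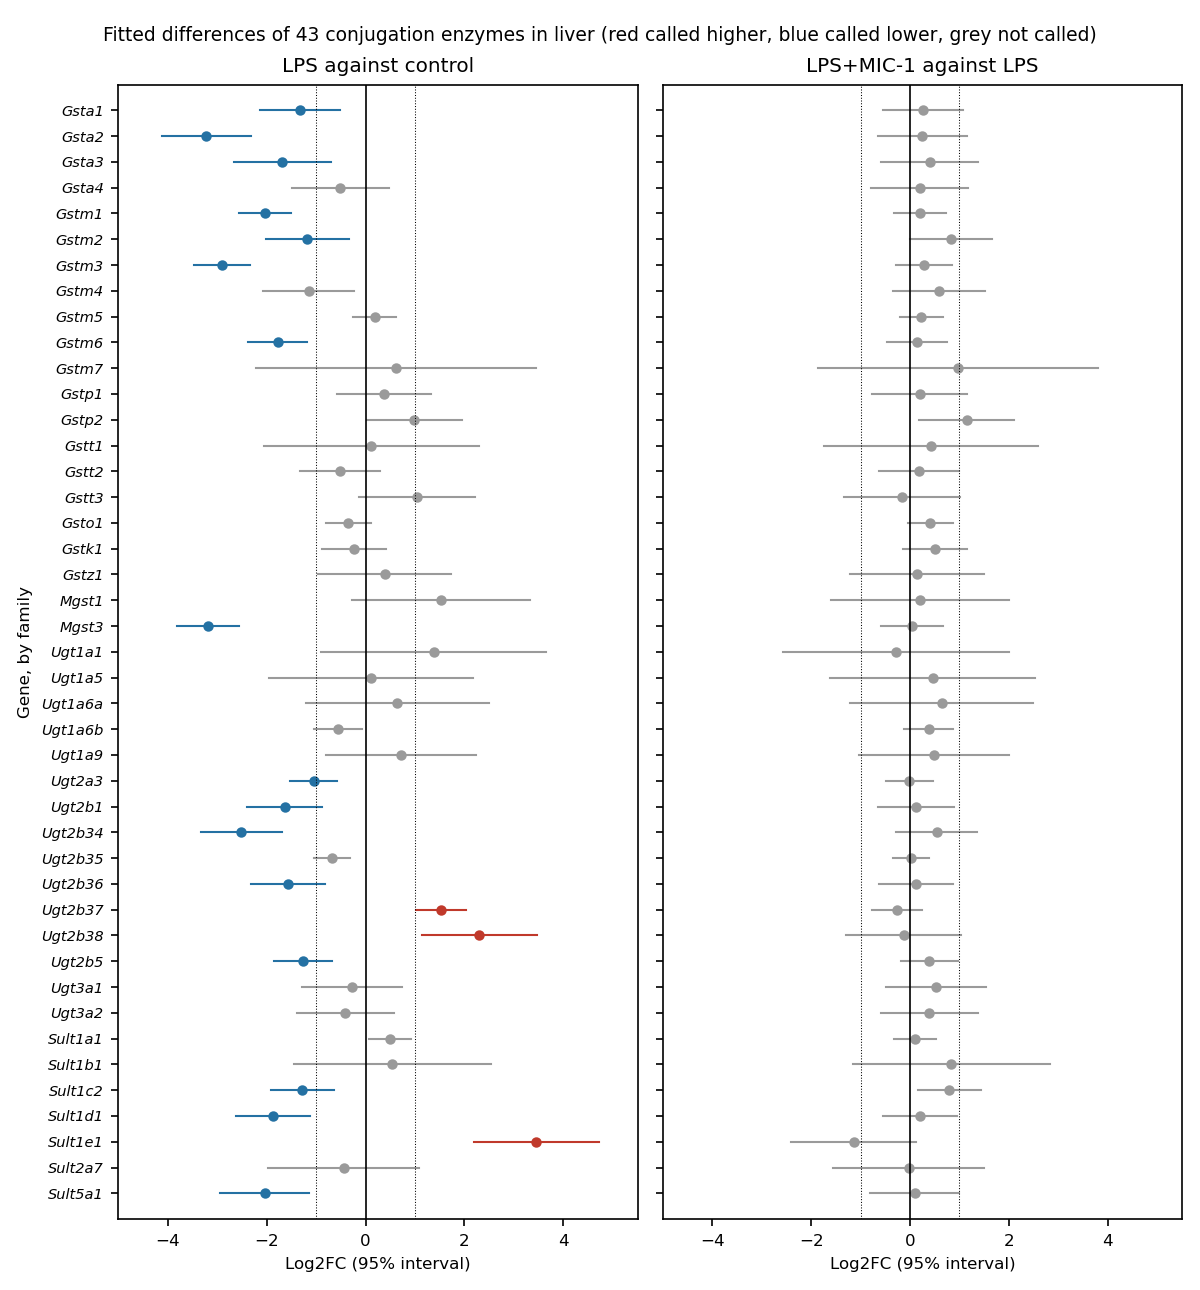
Log2FC with 95% intervals of the 43 genes in liver for LPS against control (left) and LPS+MIC-1 against LPS (right), dotted lines at a Log2FC of 1 in either direction. On the left 16 genes are called lower (blue) and 3 higher (red), and on the right all 43 are grey, between -1.14 and 1.14.

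LPS+MIC-1 against control uses the same controls as LPS against control, so the likeness of these comparisons is no separate evidence. Of the 43 genes 13 fell, where 11.5% of all genes did, and 4 rose, where 13.8% did. Those that fell were Gsta1 (-1.06), Gsta2 (-2.97), Gsta3 (-1.29), Gstm1 (-1.84), Gstm3 (-2.62), Gstm6 (-1.64), Mgst3 (-3.15), Sult1d1 (-1.66), Sult5a1 (-1.94), Ugt2a3 (-1.06), Ugt2b1 (-1.52), Ugt2b34 (-1.98) and Ugt2b36 (-1.45). Those that rose were Gstp2 (2.13, SE 0.42, adjusted p = 0.00745), Sult1e1 (2.31), Ugt2b37 (1.26) and Ugt2b38 (2.17). Gstm2 had a Log2FC of -0.35 (adjusted p = 0.469), Sult1c2 one of -0.49 (adjusted p = 0.197) and Ugt2b5 one of -0.88 (adjusted p = 0.0283, under the fold limit). Without the first control 9 rose (17.8% of all genes), Gstm7, Gstp1, Gstt3, Mgst1 and Sult1b1 being added, with Log2FC values of 3.08, 1.05, 1.50, 2.70 and 2.46. The controls left held Gstm7 at 0 and 0 FPKM and Sult1b1 at 0 and 1.40, in the liver libraries with the fewest reads per FPKM. In the same fit 10 fell (12.8% of all genes), Gsta1 (adjusted p = 0.11), Gsta3 (adjusted p = 0.108) and Ugt2a3 (-0.98) being lost. Leaving out 1 library at a time lost the call of Gsta1 in 7 of 9 fits and that of Gsta3 in 8 of 9. Without both second libraries 11 fell (13% of all genes), Gsta3 and Ugt2a3 being lost, and 6 rose (16%), Ugt1a6a (1.90) and Ugt1a9 (1.72) being added. With libraries 1 and 3 of the treated groups averaged, 11 fell (6.57% of all genes) and 2 rose (7.06%).

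The Gstp1 and Gstp2 promoters share a run of 43 bases, at -224 to -182 from the start of Gstp1 and -237 to -195 from that of Gstp2, and are shown because Gstp2 rose and Gstp1 was not called (capitals as before).
Gstp1 (chr19:4037863-4038162): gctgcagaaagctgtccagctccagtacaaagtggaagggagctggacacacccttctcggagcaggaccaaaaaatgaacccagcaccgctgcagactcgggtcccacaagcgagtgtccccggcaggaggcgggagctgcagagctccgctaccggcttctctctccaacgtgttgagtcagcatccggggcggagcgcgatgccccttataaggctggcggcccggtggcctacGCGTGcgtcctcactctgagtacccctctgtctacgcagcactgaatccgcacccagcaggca
Gstp2 (chr19:4042172-4042471): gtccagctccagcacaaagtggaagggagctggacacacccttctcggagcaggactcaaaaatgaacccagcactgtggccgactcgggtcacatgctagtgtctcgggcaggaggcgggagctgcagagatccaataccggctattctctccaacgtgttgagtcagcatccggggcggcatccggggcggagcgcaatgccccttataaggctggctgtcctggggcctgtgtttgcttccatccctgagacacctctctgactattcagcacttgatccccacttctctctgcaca

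Conjugation also needs its co-substrates, exporters and regulators, and these were read in liver by lists. Of all genes tested with LPS against control, 11.2% fell and 13.4% rose. A single call in a list of 4 or 6 genes is close to those shares and is no result about the list. For LPS against control, 4 of 11 cofactor genes fell and none rose: Gclc (-1.74), the rate-limiting enzyme of glutathione synthesis, Ugdh (-1.17), which makes UDP-glucuronic acid, Slc35d1 (-2.03), which carries UDP-sugars into the endoplasmic reticulum, and Papss2 (-1.59), which makes PAPS. Of 4 exporters of conjugates, Abcc2 (-1.25), which moves them into bile, and Abcc6 (-2.38) fell. Of 6 genes for processing or undoing conjugates, 1 rose, Ggt6 (1.15). Among the other conjugation enzymes listed, the methyltransferases Inmt (-3.28), Gamt (-2.77) and Hnmt (-1.73) were among those that fell, and Nnmt (3.10) and As3mt (2.13) rose. Of 4 genes of eicosanoid synthesis related to GSTs, Hpgds (-1.60) fell and Alox5ap (2.55), a gene of leukocytes, rose. Of 11 regulators, Nr1i3 (-2.61), the nuclear receptor CAR, whose groups overlapped, and Onecut1 (-2.92) fell. Of 4 Nrf2 targets used as a reference, Hmox1 (2.54) and Srxn1 (1.48) rose. For LPS+MIC-1 against LPS no gene of any of these lists was called, and Nqo1, an Nrf2 target, had a Log2FC of -0.05 (adjusted p = 0.997).

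In macrophages fewer of the genes passed. The 14 genes above the threshold were Gstm1, Gstm4, Gsto1, Gstp1, Gstt1 to Gstt4, Gstz1, Mgst2, Mgst3, Ugt1a6a, Ugt1a6b and Ugt1a7c, and they summed to 264.6 to 528.5 FPKM, 0.0251% to 0.081% of the table. No Sult, Ugt2, Ugt3, Gsta or Gstk gene passed, and 17 of the 48 symbols left out were listed at 0 in all 9 libraries. Ugt1a6a was just inside with a mean of 1.45 FPKM and Gstp2 just outside with 0.954. The 2 tables were normalized separately, so levels are not compared between them.

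With all 9 macrophage libraries, LPS against control called 0% of 9905 genes higher and 0% lower, none of the 14 among them, at an adjusted p below 0.01 and a Log2FC above 1 in size. At an unadjusted p below 0.05, 49.8% of all genes passed, and 5 of the 14. Without the second LPS library, 16.3% of all genes were called higher, with 3 of the 14, and 17.9% lower, with none of the 14. Libraries 1 and 3 of a macrophage group differed by a median of 0.0483 to 0.0638 on the log2 scale over well-expressed genes. Pairs with the second library differed by 0.127 to 0.65. In every fit without the second LPS library, the LPS group is such a close pair, so its spread is the spread within that pair.

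The 3 genes called higher with LPS in that fit were Gstt4, Gstt1 and Gstm1. Gstt4, a theta-class gene, had 1.09, 0.565 and 0.804 FPKM in controls, 12.6, 0.850 and 14.0 under LPS, and 13.8, 5.57 and 12.1 under LPS+MIC-1. It was above the threshold only through the treated groups, its control mean being 0.82 FPKM. Its second LPS library was at the control level, and without it the Log2FC was 3.40 (SE 0.35, adjusted p = 6.37e-05), against 2.28 (adjusted p = 0.078) with it. Gstt1 had 2.68, 3.06 and 1.45 FPKM in controls, 14.9, 3.59 and 17.5 after LPS, and 6.04, 1.53 and 5.37 after LPS+MIC-1. Its Log2FC was 2.57 (SE 0.50, adjusted p = 0.00195) without the second LPS library and 1.89 (adjusted p = 0.0777) with it. Gstm1 had 12.9, 19.3 and 11.6 FPKM in controls, 35.5, 21.2 and 32.3 under LPS, and 23.4, 31.5 and 23.8 under LPS+MIC-1. All LPS libraries were above all controls, and the Log2FC was 1.22 (SE 0.22, adjusted p = 0.00125) without the second LPS library and 1.00 (adjusted p = 0.0777) with it.

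LPS+MIC-1 against LPS in macrophages called 1 of the 14 lower and none higher with all 9 libraries, where 1.81% of all genes were called lower and 2.06% higher. The gene was Mgst3, which had 52.5, 64.7 and 52.1 FPKM in controls, 39.6, 57.7 and 36.8 after LPS, and 16.2, 18.3 and 15.0 after LPS+MIC-1. Every LPS+MIC-1 library was below every other library, at a Log2FC of -1.39 (SE 0.19, adjusted p = 0.00313), and -1.19 (SE 0.12, adjusted p = 8.61e-05) without the second LPS library. With every library rescaled to the same FPKM sum it was -0.90 and not called (adjusted p = 0.126), and the call was also lost without the first LPS library or without any 1 of the 3 LPS+MIC-1 libraries.

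Without the second LPS library, 3 of the 14 were higher with LPS+MIC-1 than with LPS, where 11.3% of all genes were, and 2 lower, where 12% were. Gsto1 had 48.1, 61.9 and 50.6 FPKM in controls, 26.1, 59.5 and 26.7 under LPS, and 60.2, 76.5 and 66.2 under LPS+MIC-1. Its Log2FC was 1.33 (SE 0.13, adjusted p = 7.39e-05), against 0.95 (adjusted p = 0.0581) with all libraries. Gstp1 had 68.2, 113 and 67.1 FPKM in controls, 71.9, 122 and 74.6 after LPS, and 143, 162 and 159 after LPS+MIC-1. Its LPS+MIC-1 libraries were above all others, at a Log2FC of 1.07 (SE 0.21, adjusted p = 0.00275), against 0.83 (adjusted p = 0.0571). Ugt1a6a had 0.834, 1.23 and 1.00 FPKM in controls, 0.872, 1.19 and 0.495 under LPS, and 2.57, 3.02 and 1.80 under LPS+MIC-1, a Log2FC of 1.32 (SE 0.24, adjusted p = 0.00171), against 1.14 (adjusted p = 0.021). With means of 1.02 FPKM in controls and 0.851 under LPS, Ugt1a6a passed the threshold only through LPS+MIC-1, at 2.46. Its rise is therefore partly fixed by the choice and is given as a description. Of its 31-base words, 88.5% occurred in other genes, most in Ugt1a7c (63.4%), so its level is uncertain. The 2 that were lower were Mgst3 and Gstt1, the latter at -1.97 (SE 0.50, adjusted p = 0.00886), against -1.29 (adjusted p = 0.18) with all libraries.

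LPS+MIC-1 against control called Mgst3 lower with all 9 macrophage libraries (-1.74, SE 0.19, adjusted p = 0.00101), where 2.32% of all genes were lower, and none of the 14 higher, where 3.27% were. Fitted without the second LPS library, which changes the spread but not these groups, 7.55% of all genes were higher, with 3 of the 14, and 8.2% lower, with Mgst3 again. The 3 were Gstt4 (2.98, adjusted p = 0.000137, against 0.0362 with all 9), Mgst2 and Ugt1a6b. Mgst2, which can make leukotriene C4, had 29.6, 55.1 and 31.7 FPKM in controls, 41.9, 57.2 and 51.5 after LPS, and 91.3, 163 and 88.9 after LPS+MIC-1, all above the other libraries, at a Log2FC of 1.55 (SE 0.30, adjusted p = 0.00295, against 0.0106 with all 9). Ugt1a6b had 1.76, 7.70 and 1.82 FPKM in controls, 7.88, 9.18 and 7.65 under LPS, and 11.1, 11.8 and 15.3 under LPS+MIC-1, at a Log2FC of 1.91 (SE 0.46, adjusted p = 0.00836, against 0.0207 with all 9). Its second control was well above the other controls, and 93.5% of its 31-base words are shared with Ugt1a6a.

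Other macrophage genes moved less. Ugt1a7c, the highest Ugt1a gene there, had 21.3, 19.1 and 20.9 FPKM in controls, 15.2, 20.1 and 18.2 after LPS, and 25.8, 31.3 and 21.3 after LPS+MIC-1, whose lowest library was at the level of the controls. Gstz1 had 17.5, 12.8 and 16.1 FPKM in controls, 8.43, 12.8 and 11.7 under LPS, and 11.1, 11.0 and 11.8 under LPS+MIC-1. Gstm4, Gstt2 and Gstt3 stayed between 1.63 and 8.82 FPKM in all 9 libraries and were not called in either fit. The second library of each treatment was the highest of its group for 10, 10 and 9 of the 14 genes, in the order Control, LPS and LPS+MIC-1.

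**Figure D5:**
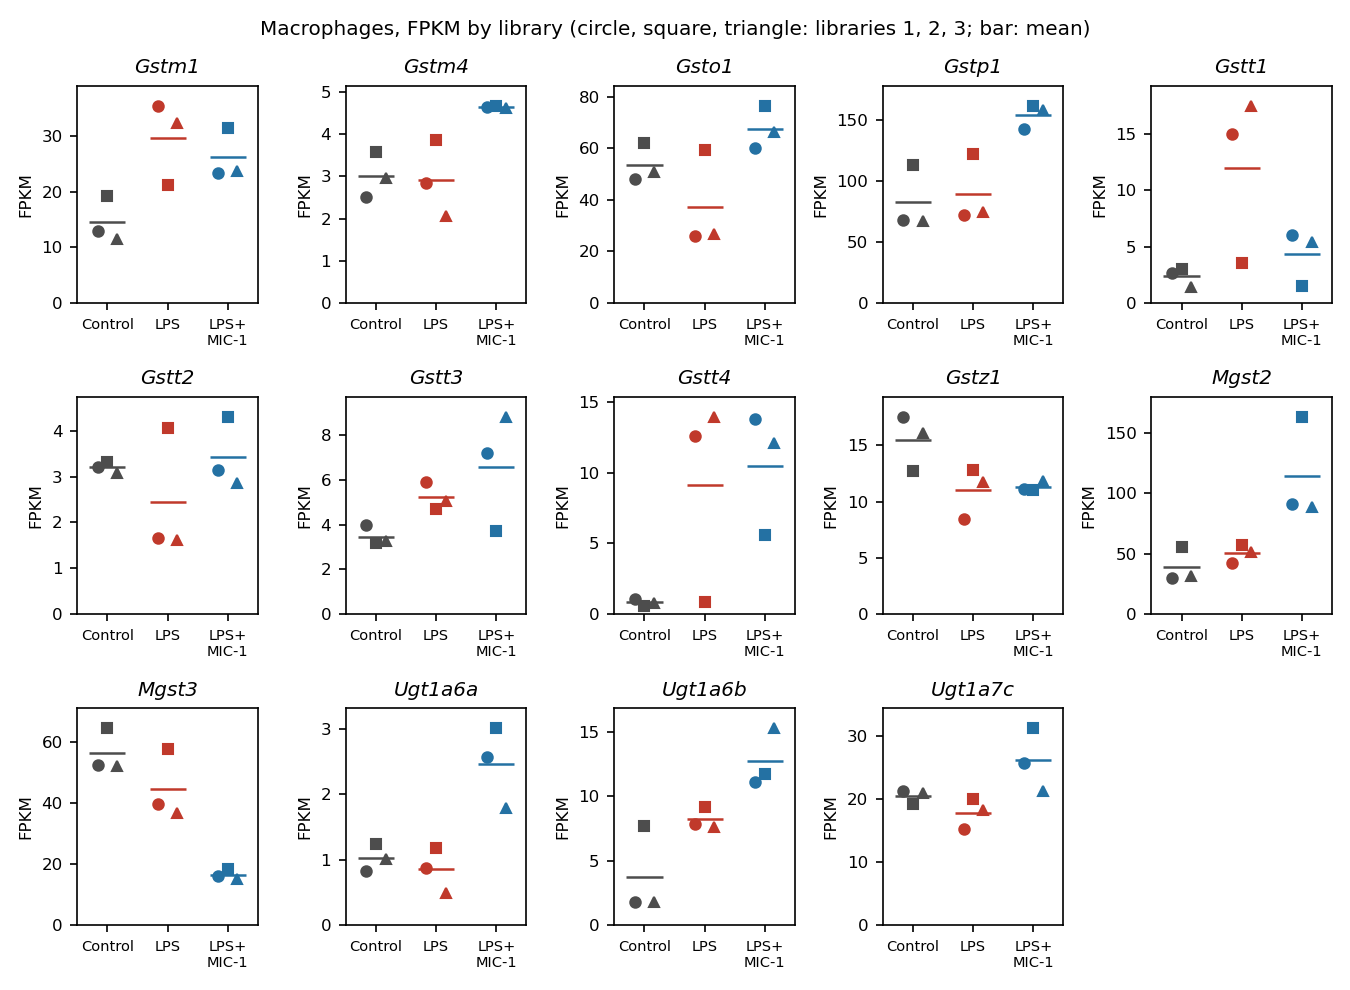
FPKM of the 14 genes in the 3 libraries of each macrophage group (circle, square and triangle for libraries 1, 2 and 3, bars at the group mean), each panel with its own axis from 0. The LPS square lies with the controls and away from the other LPS libraries for Gsto1, Gstt1 and Gstt4, and the LPS+MIC-1 libraries lie below all others for Mgst3 and above all others for Gstm4, Gstp1, Mgst2, Ugt1a6a, Ugt1a6b and Ugt1a7c. Ugt1a7c cleared the highest control by little, at 21.33 against 21.30 FPKM. Of all 9905 genes tested, LPS+MIC-1 was higher than LPS without overlap for 1769 and lower for 1807. Against control these counts were 3114 and 3460.

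In the pathway lists of macrophages, LPS+MIC-1 against LPS with all 9 libraries called 2 of 10 cofactor genes higher, Gclm (2.21), the modifier subunit of glutathione synthesis, and Gsr (1.73), glutathione reductase. Over all genes tested, 2.06% were called higher and 1.81% lower. Of 5 genes for processing or undoing conjugates, the sulfatase Arsb (-2.87) was lower. Of the 4 Nrf2 targets, Nqo1 (4.34), Srxn1 (2.96) and Txnrd1 (1.43) were higher, and Hmox1 was not called at 0.49. Nqo1 had 0.03 to 0.731 FPKM in the control and LPS libraries and 12.6 to 37.6 in those of LPS+MIC-1. It passed the threshold only through LPS+MIC-1, so its rise is partly fixed by the choice. The size of its Log2FC also depends on the pseudocount of 0.5. None of 3 exporters, 5 other conjugation enzymes, 4 eicosanoid genes and 4 regulators was called. Without the second LPS library the same genes were called, at 2.03 for Gclm, 2.09 for Gsr, -3.24 for Arsb, 4.05 for Nqo1, 3.12 for Srxn1 and 1.36 for Txnrd1, and Hmox1 was at -0.27. In that fit 11.3% of all genes were higher and 12% lower, so 1 call in a list of 4 is close to those shares. Of 10 cofactor genes 5 were higher, among them Gclc (1.77, against 1.30 and not called with all libraries). Its Log2FC with LPS against control was -1.50 without that library and -1.03, not called, with it. The exporter Abcc4 (1.44) was then higher and Abcc5 (-1.43) lower, and 1 of 4 eicosanoid genes, Ptges (-1.69), and 2 of 4 regulators, Arnt (-1.44) and Rxra (-1.87), were lower. Of 5 genes for processing or undoing conjugates, 1 was higher and 2 lower without that LPS library, Arsb among the latter. Of 5 other conjugation enzymes, 1 was higher and 1 lower. Against control, the glutathione conjugate exporter Abcc1 was higher with LPS+MIC-1 in both fits (1.84).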

How the data were processed

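Liver and RAW264.7 RNA-seq was used as deposited, 9 libraries a table. The authors pseudoaligned reads to an mm9 RefSeq index with kallisto 0.45.0, summed them to genes and computed FPKM with DESeq2 1.20.0. FPKM sums differ between libraries (590303 to 1063784 in liver, 557136 to 1137533 in macrophages), and total depth is not in the tables. The deposited comparison files (mean values, fold changes, p-values) were not used, and 0 columns were left unmatched.

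The members and gene lists were chosen with earlier results of these data known. Log2(FPKM + 0.5) of genes with mean FPKM above 1 was fitted with limma 3.58.1 (trend, 9 libraries in 1 fit) in R 4.3.3, with Benjamini-Hochberg adjustment over all genes tested. Calls needed a Log2FC above 1 in size and an adjusted p below 0.05 (liver) or 0.01 (macrophages). These are the study's limits, except that for liver it names a P-value without saying that it was adjusted. The code was tested on simulated data. With 3 against 3 libraries an exact permutation test cannot go below p = 0.1, so none was used. Library values are given for every gene called and for the highest gene of each family. Shared sequence was read as 31-base words of GENCODE vM1 transcripts. Alternatives were other pseudocounts, filters, scalings, the 2 groups alone, no fold limit and each library left out. An unadjusted limit, leaving out both second libraries and averaging close libraries were chosen after seeing the data. A gene of the pathway lists is not reported here.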

Additional observations from a re-analysis of the deposited data

Results flagged for a closer look

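Gstm1 went in opposite directions in liver and in macrophages, both for LPS and for LPS+MIC-1 against control. Gstm4 did so for LPS+MIC-1 against control. In these comparisons the groups did not overlap in either table. Such separation was common. Between LPS+MIC-1 and control, 2450 of 10147 liver genes were lower and 3114 of 9905 macrophage genes higher without overlap. Between LPS and control these counts were 2112 and 1591. Gstm4 in liver was barely separated, at 25.0 FPKM in the highest LPS+MIC-1 library and 25.5 in the lowest control. For LPS against control, Gstm1 had a Log2FC of -2.04 in liver and 1.00 in macrophages. For LPS+MIC-1 against control, Gstm1 had -1.84 in liver and 0.85 in macrophages, and Gstm4 had -0.56 and 0.56. The difference between liver and macrophages was not tested, since the tables were normalized separately, and the comparisons of a table share their controls. Of these values, those of Gstm1 in liver passed the limits with all 9 libraries.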

How the results depend on the processing

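None of the 36 called liver values or of the 12 macrophage values called in either fit changed sign under any alternative run. In liver, a pseudocount of 0.1, the median of ratios, no fold limit and the unadjusted limit kept all 36 calls. The other settings lost 1 to 15, most with close libraries averaged (15) and without the first control or the third LPS library (6 each). Members higher with LPS numbered 3, and 5 without the first control and without both second libraries (the second of LPS and of LPS+MIC-1). Those lower numbered 16, and 6 with close libraries averaged. For LPS+MIC-1 against LPS none was called higher or lower, 1 was higher at an unadjusted p below 0.05 with the same fold limit, and without both second libraries 2 were higher and 1 lower. Set against control, 4 were higher after LPS+MIC-1, 9 without the first control and 2 with close libraries averaged. Leaving out 1 liver library at a time gave 2 to 5 higher and 13 to 17 lower after LPS. The counts were 0 to 0 in both directions between LPS+MIC-1 and LPS. They were 3 to 9 higher and 10 to 13 lower when LPS+MIC-1 was set against control. In macrophages, the 1 gene lower with LPS+MIC-1 against LPS became 0 with FPKM rescaled to the same sum, with only the 2 groups compared and with close libraries averaged. The 1 lower against control became 0 with the same sum and with close libraries averaged. Higher against control, 0 became 1 with the median of ratios and 2 with only the 2 groups compared. Leaving out 1 macrophage library gave counts of 0 to 3 higher and 0 to 0 lower after LPS. Between LPS+MIC-1 and LPS these were 0 to 3 and 0 to 2, and between LPS+MIC-1 and control 0 to 3 and 1 to 1. Leaving out the second LPS library gave each count of 3. Averaging left fewer samples. Beyond that, the cause was not tested. Reads per library are estimated only roughly, from the most frequent low value, so low values have no counting interval. No paired analysis was possible because the columns of both tables carry no replicate number.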
